A study of Mus musculus with 2 samples.

Results

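The Sox, Pax, Lhx and Nkx genes and the genes Six2 to Six6 encode transcription factors that set cell identity in the embryo. They were taken as the protein-coding mouse genes whose symbol is one of these family names followed by a number. The annotation was GENCODE M21 on the mm10 genome. Of 21851 protein-coding genes, 53 are described here: 19 Sox, 13 Nkx, 8 Lhx, 8 Pax genes and the 5 from Six2 to Six6. The data are ATAC-seq from T-helper 2 (Th2) cells, the CD4+ T cells that make the type 2 cytokines. ATAC-seq inserts adapters into DNA that is free of nucleosomes, so that a pile of fragments marks an open region. There was 1 group of 2 libraries, replicates 1 and 2, of primary Th2 cells from strain C57BL/6NJ mice. The labels name no treatment, and give neither sex nor age. Both replicates cite the same donor record. Whether they are different animals is not stated, and their spread may be purely technical. With 1 group and no control, no difference was tested.

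SOX proteins bind DNA through a high-mobility-group box and bend it. PAX proteins carry a paired domain, LHX proteins a homeodomain and a pair of LIM domains that bind cofactors, and NKX and sine oculis (Six2 to Six6) proteins a homeodomain. Most of these genes have promoters in long CpG-rich sequence, and outside the tissues that use them such promoters are commonly held by Polycomb complexes. A few have known parts in T cells. Sox4 opposes Gata3 in Th2 differentiation, Sox13 acts in gamma delta T cells, Sox5 in T cells that make interleukin 17, and Sox12 in regulatory T cells.

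The authors' lists held 51557 and 60891 open regions in replicates 1 and 2. Paired values below are always replicate 1, then replicate 2. Overlapping regions of both lists were joined to 44136 shared regions, and a gene was called open when a shared region had any base within 1 kb of a protein-coding start site. The fold is the authors' enrichment at the highest point of a region, its summit, over local background. The pileup is the number of overlapping counts at the summit, recovered from the fold and the p-value, and is the depth behind each value. Th2 identity was checked by promoters: all 8 Th2 markers were open (Cd3e, Cd4, Cd5, Gata3, Il4, Il5, Il13 and Ccr4), against 0 of 4 B cell, 0 of 4 myeloid and 0 of 4 CD8 and natural killer markers. Among non-blood markers, 2 of 4 stromal, 2 of 3 endothelial, 2 of 4 epithelial and 2 of 4 neural promoters were open. Of all protein-coding genes, 58.3% were open. The part of other cells in the results was not tested. A weak region may be open in few cells or partly open in many, which bulk libraries cannot tell apart.

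A shared promoter region was found at 22 of the 53 genes (41.5%), beside 58.3% of all protein-coding genes. Open were Sox4, Sox6, Sox7, Sox8, Sox12, Sox13, Sox18, Sox21 and Sox30 (9 of 19 Sox genes), Lhx1, Lhx2, Lhx4, Lhx6 and Lhx9 (5 of 8), Nkx2-4, Nkx3-2 and Nkx6-1 (3 of 13), Pax2, Pax3 and Pax6 (3 of 8), and Six4 and Six5 (2 of 5). The remaining 31 genes had none. Of 19 subgroups with more than 1 gene, 13 were split between open and closed genes, 4 had no open gene and 2 were open throughout. No promoter was open among Sox1, Sox2 and Sox3, the neural and pluripotency factors of group B1, nor at Pax1 and Pax9, Six3 and Six6, or Nkx1-1 and Nkx1-2. Lhx2 and Lhx9, and Six4 and Six5, were both open. Of the 7 Nkx2 genes, with roles in thyroid, heart, brain and gut, only Nkx2-4 was open. With the stricter limit of −log10 q of at least 10 in both lists, 10 of the 53 genes (18.9%) were open beside 52.0% of all genes: Lhx2, Lhx6, Nkx3-2, Six5, Sox4, Sox6, Sox8, Sox12, Sox21 and Sox30.

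**Figure D1:**
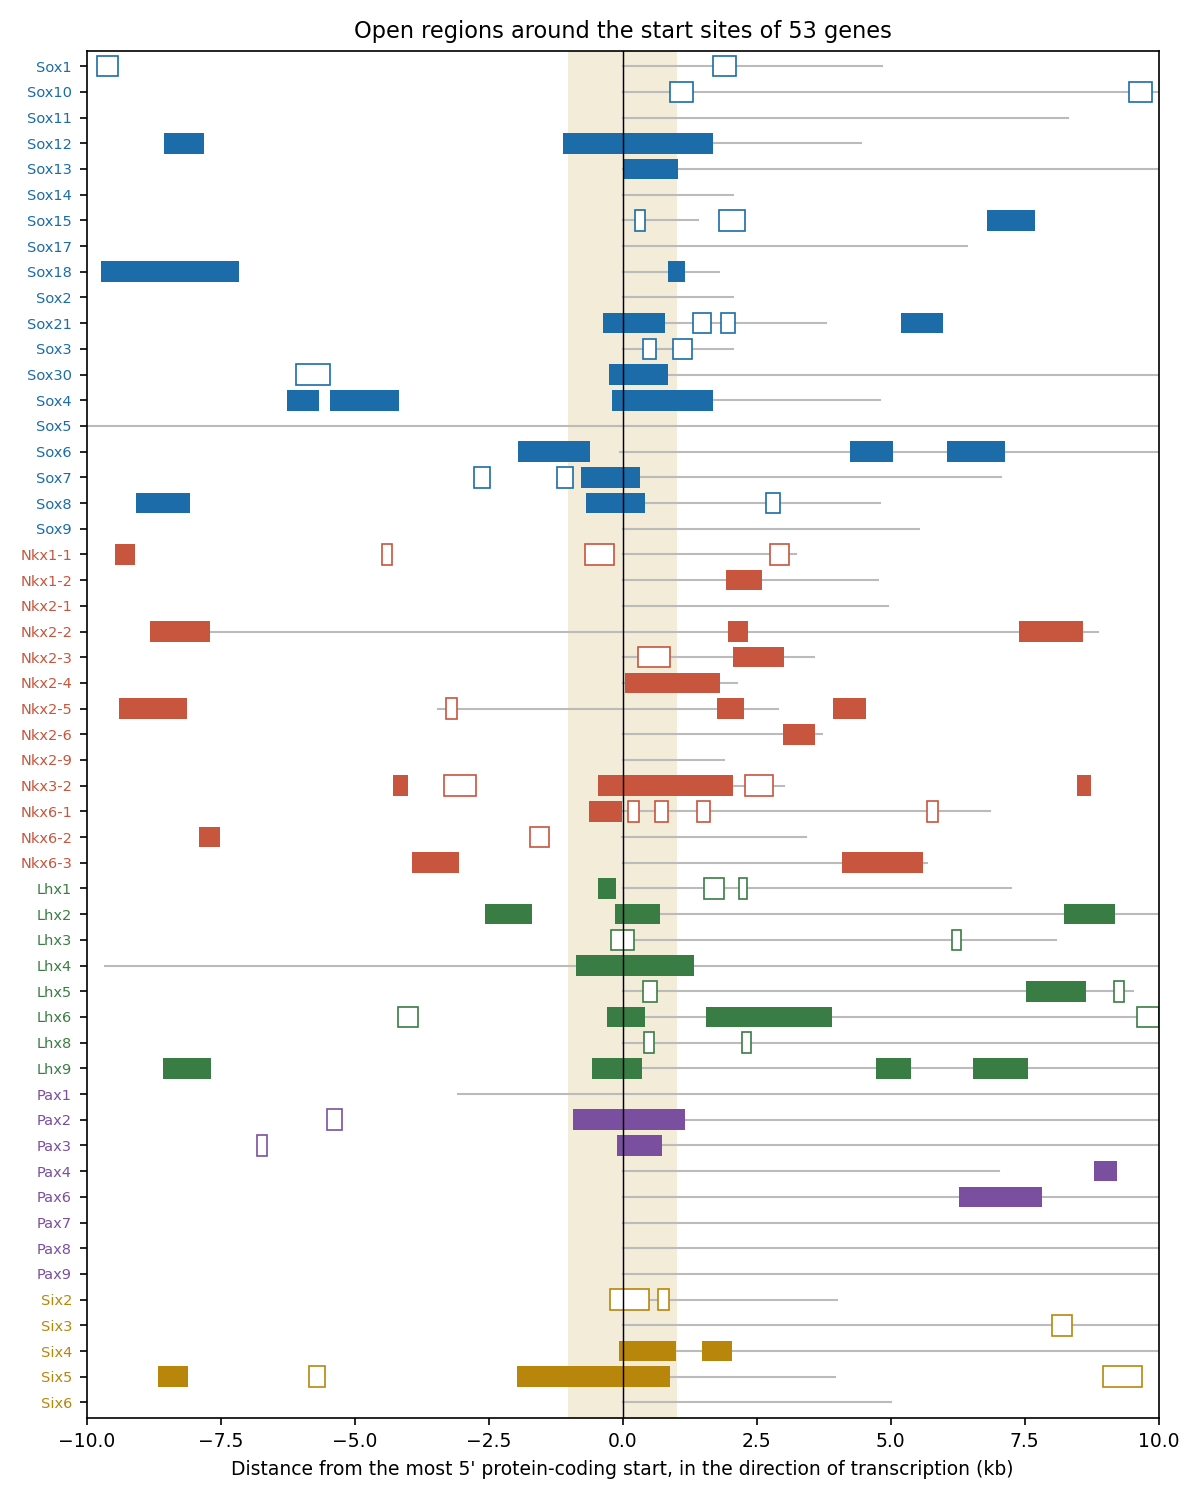
Open regions within 10 kb of the most 5′ protein-coding start of each of the 53 genes. The x axis is distance in kb along the direction of transcription, filled bars are shared regions, open bars are regions of a single replicate, grey lines are gene bodies and the shaded band is the 1 kb limit. Regions cross the start at Sox12, Six5 or Nkx3-2, and none lies near the start of Sox2, Sox11, Nkx2-1 or Pax9; regions at other start sites of a gene, as at Pax6, lie outside the band.

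The Sox genes held the 3 highest promoter folds in replicate 1. Sox30, a regulator of sperm development, had a region at chr11:45980054-45981150 that covered its start and was 1097 and 1008 bp wide, with folds of 8.21 and 7.23 and a pileup of 31 in both. Sox21, a group B2 repressor in neural cells, had folds of 7.82 and 6.95 at chr14:118236249-118237389, with widths of 1098 and 1000 bp and pileups of 44 and 42. The start of the lincRNA gene Gm4675 lies within 1 kb of it. Sox12 had folds of 7.74 and 8.33 at chr2:152396371-152399180. At 2763 and 2401 bp this was the second widest promoter region of the list in replicate 1, and its pileups of 103 (95% Poisson interval 84.1 to 125) and 134 (112 to 159) were among its deepest. Sox4 of the same group C was open over its start and single exon at chr13:28952028-28953908, 1536 and 1881 bp wide, with folds of 5.35 and 5.57 and pileups of 41 and 63. Sox11, the other group C gene, had no region.

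At the group D genes Sox6 and Sox13 no region covered a start site. Sox6, which acts in cartilage and red cell development, had a region 618 bp from a start at chr7:116039362-116040689, 1202 and 1232 bp wide, with folds of 7.28 and 8.95 and pileups of 34 and 56. A weaker Sox6 region in intron 1, chr7:116031612-116032701, had widths of 822 and 1090 bp, folds of 4.06 and 4.93 and pileups of 21 and 32, and lies within 1 kb of the start of the antisense gene Sox6os. At Sox13 the region chr1:133423349-133424375 began 2 bp inside the gene, was 520 and 1027 bp wide, and had folds of 3.10 and 4.63 with pileups of 12 and 20. Sox8, a group E gene of neural crest and testis, had folds of 6.40 and 7.88 over its start at chr17:25570274-25571379, with widths of 1060 and 1073 bp and pileups of 40 and 58. The start of the antisense gene 2810468N07Rik lies within 1 kb of it. Its group members Sox9 and Sox10 had no shared promoter region. Of the endothelial group F, Sox7 was open over its start at chr14:63942904-63943995, 490 and 1060 bp wide, with folds of 4.80 and 4.09 and pileups of 24 and 23. Sox18 had only a region of 226 and 330 bp in exon 2, chr2:181670471-181670800, with folds of 3.24 and 4.39 and pileups of 13 and 21. It lay 840 bp from the start, the farthest inside the 1 kb limit. Sox17 had none. Beside these, 2 of 3 endothelial marker promoters were open (66.7%, all protein-coding genes 58.3%). Kdr had folds of 4.10 and 4.29 and Pecam1 5.83 and 5.49, while Cdh5 was not open.

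Sequences at 4 of these summits are shown because they hold the word found most often in the promoter regions of the list. Each is 5′ to 3′ on the strand of the gene, from mm10, with annotated UTR bases left out. Capitals mark GGGCGG, the word bound by SP and KLF factors, or its reverse complement, and in Sox30 also CCGGAAG, the word of ETS factors. They are Sox12 (chr2:152398728-152398927, minus strand), upstream of the start, Sox8 (chr17:25570687-25570854, minus strand), directly upstream, Sox30 (chr11:45980391-45980590, plus strand), in exon 1, and Six5 (chr7:19093822-19094010, plus strand), upstream.
Sox12: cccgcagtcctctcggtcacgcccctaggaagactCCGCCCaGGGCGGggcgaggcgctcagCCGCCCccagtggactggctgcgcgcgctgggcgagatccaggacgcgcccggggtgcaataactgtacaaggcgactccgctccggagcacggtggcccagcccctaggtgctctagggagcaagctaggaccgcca
Sox8: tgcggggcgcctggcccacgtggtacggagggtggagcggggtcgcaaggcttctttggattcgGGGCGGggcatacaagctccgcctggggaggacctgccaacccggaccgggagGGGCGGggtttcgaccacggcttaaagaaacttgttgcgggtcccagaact
Sox30: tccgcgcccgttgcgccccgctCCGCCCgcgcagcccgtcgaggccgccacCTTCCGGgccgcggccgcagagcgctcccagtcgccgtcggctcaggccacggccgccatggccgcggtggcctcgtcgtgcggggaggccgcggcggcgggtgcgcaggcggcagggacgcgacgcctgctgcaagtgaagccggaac
Six5: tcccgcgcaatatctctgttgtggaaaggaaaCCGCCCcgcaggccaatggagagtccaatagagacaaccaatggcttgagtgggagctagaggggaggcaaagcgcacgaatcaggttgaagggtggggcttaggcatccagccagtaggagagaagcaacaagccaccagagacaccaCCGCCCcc

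GGGCGG, searched on both strands in 200 bp at the summit of replicate 1, was found in 14 of the 27 shared promoter regions of these genes (51.9%) beside 57.4% of all 12538 promoter regions. CCGGAAG was found in 1 of 27 (3.70%, Sox30) beside 14.1%, and TGTGGT, the word of RUNX factors, in 1 of 27 (Lhx9) beside 8.13%. TGANTCA, the AP-1 word, was found in 0 of 27 beside 4.25%. ACAAAG, a word of SOX and TCF factors, was found in 3 of 27 (11.1%: Lhx9, Nkx3-2 and Sox6) beside 7.05%. ACAATG, another SOX word, was found in 0 of 27 beside 3.57%. Over the 8980 CpG-rich promoter regions alone, GGGCGG was found in 65.4%, CCGGAAG in 15.9%, TGTGGT in 6.02%, TGANTCA in 2.25%, ACAAAG in 5.86% and ACAATG in 3.1%. These are matches of letters and not bound sites.

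Of the sine oculis genes, which act with EYA proteins in muscle, kidney and sensory organs, Six5 had the widest promoter region of the list. Its region chr7:19092621-19095484 was 2832 and 2847 bp wide, with folds of 7.25 and 7.46. Its pileups of 154 (131 to 180) and 199 (172 to 229) were the highest of any promoter region of the 53 genes, over a local background of 20.4 and 25.8. Six4 had folds of 4.68 and 5.06 at chr12:73112457-73113520, with widths of 760 and 1041 bp and pileups of 21 and 28. Six2 had a region in each list near its start, but they did not overlap. The eye and forebrain genes Six3 and Six6 were not open. Of the partners of sine oculis proteins, Eya1, Eya2, Eya3 and Dach2 were open (4 of 6, 66.7%, beside 58.3% of all protein-coding genes). Eya3 had folds of 15.5 and 13.9 and Eya2 12.9 and 12.7. Eya4 and Dach1 were not.

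Among the Lhx genes, Lhx2, a factor of forebrain, eye and hair follicle, was open at both of its start sites. The region at the internal start, chr2:38350223-38352162, had widths of 1149 and 1912 bp, folds of 7.36 and 7.01 and pileups of 84 and 95. The one at the 5′ start, chr2:38339137-38339978, was 799 and 778 bp wide, and its folds of 3.78 and 7.19 and pileups of 19 and 41 had a larger ratio between replicates than those of any other shared promoter region of the list. Lhx6, which acts in cortical interneurons, had a region of 1905 and 2350 bp in intron 3, chr2:36101512-36103861, with folds of 4.27 and 5.22 and pileups of 41 and 75. Over its 5′ start, chr2:36104987-36105695, the folds were 2.84 and 3.13, the widths 486 and 709 bp and the pileups 28 and 49. Lhx9, needed for the gonad, had 3 weak regions. Over the 5′ start, chr1:138848225-138849149, the folds were 3.21 and 3.70, with widths of 804 and 925 bp and pileups of 19 and 23. In its introns, chr1:138841017-138842042 had folds of 2.64 and 3.59, widths of 961 and 904 bp and pileups of 19 and 28, and chr1:138843205-138843851 had folds of 2.88 and 3.50, widths of 240 and 586 bp and pileups of 20 and 28.

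Lhx4, a pituitary factor, was open over its start at chr1:155740700-155742895, 1099 and 2180 bp wide, with folds of 3.79 and 3.88 and pileups of 18 and 23. Lhx1, of kidney and motor neurons, had the weakest promoter region of the list, chr11:84525657-84525996. It lay 122 bp upstream, 340 and 175 bp wide, with folds of 2.39 and 2.63 and pileups of 12 (6.2 to 21) and 15 (8.4 to 24.7), within 1 kb of the start of the lincRNA gene Lhx1os. Lhx3, Lhx5 and Lhx8 each had a promoter region in a single list. Of the LIM partners, Ldb1, the adaptor that LIM homeodomain proteins bind, was open with folds of 6.27 and 5.92. The LIM-only genes Lmo1, Lmo2 and Lmo4 were open too, but not Ldb2 or Lmo3 (4 of 6, 66.7%, beside 58.3% of all protein-coding genes). Of 4 other LIM homeodomain genes, Isl2 was open (25%, beside the same 58.3%) and Isl1, Lmx1a and Lmx1b were not.

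Of the Nkx genes, Nkx3-2, a factor of skeleton and gut, had the highest promoter folds, 6.03 and 7.04. They came from a joined region of 2503 bp at chr5:41762450-41764952, made of 2 and 3 regions of the lists, whose strongest were 1360 and 643 bp wide with pileups of 62 and 87. Nkx6-1, of beta cells and motor neurons, was open from 14 bp upstream of its start at chr5:101665010-101665629, 620 and 433 bp wide, with folds of 5.87 and 4.52 and pileups of 24 and 19. The Nkx2-4 region chr2:147083637-147085403 began 42 bp inside the gene and had its summit in exon 2. It was 1767 and 1214 bp wide, with folds of 5.27 and 4.85 and pileups of 22 and 24. Several Nkx genes without an open promoter had a shared region in an exon. These lay 1.65 kb from the start in Nkx2-2, the nearest among the genes without an open promoter, 1.77 kb in Nkx2-5, 1.93 kb in Nkx1-2, 2.06 kb in Nkx2-3 and 2.99 kb in Nkx2-6. Their folds were between 3.08 and 4.13 in replicate 1 and between 2.83 and 4.11 in replicate 2. Those of Nkx2-2 and Nkx1-2 lie within 1 kb of the starts of the antisense genes Nkx2-2os and Gm16764. Nkx2-2 also had a stronger region in intron 2, with folds of 7.86 and 5.81. Another Nkx2-2 region, chr2:147194101-147195218, had folds of 3.84 and 4.41 and lay 7697 bp upstream of a protein-coding start. It covered the 5′ end of the Nkx2-2 gene record, where no protein-coding transcript starts. Nkx6-3 had a region 3.05 kb upstream of its start, with folds of 6.66 and 6.68, within 1 kb of the start of the antisense gene Gm15816. A second Nkx6-3 region, in exon 3, had folds of 5.12 and 4.22.

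The Pax regions were weak in both replicates. Pax2, of kidney and midbrain, had a joined region of 2094 bp over its start at chr19:44755123-44757216, with widths of 1722 and 556 bp, folds of 4.52 and 2.94 and pileups of 19 and 16. Pax6, of eye and pancreas, was open at an internal start, chr2:105675170-105676723, and not at its 5′ end, with widths of 1463 and 1554 bp, folds of 4.37 and 3.56 and pileups of 23 and 24. Pax3, of neural crest and muscle, had folds of 3.08 and 4.97 over its start at chr1:78196394-78197233, and was 188 bp wide in replicate 1 and 777 bp in replicate 2, with pileups of 11 and 21. Pax1, Pax4, Pax7, Pax8 and Pax9 had no promoter region in either list. Of the Groucho corepressors that PAX and NKX proteins can recruit, Tle1, Tle3, Tle4 and Tle6 were open, and Tle2 was not. This was 4 of 5 matched genes (80%), beside 58.3% of all protein-coding genes.

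Set against all open genes, these promoters had low folds and ordinary widths. For the strongest promoter region of each gene, the median fold over the 22 genes was 5.03 and 5.01, beside 9.64 and 10.9 over all 12750 open genes. All 22 lay below that median in each replicate. The highest were Sox30 at 8.21 in replicate 1 and Sox6 at 8.95 in replicate 2, and 63.8% and 66.3% of open genes lay above these. Folds under 5 were found at 11 of the 22 genes in each replicate, beside 11.7% and 9.15% of open genes. The median width was 1098 and 1050 bp, beside 1091 and 1118 bp, and 14 of 22 were at least 1 kb wide in replicate 1 (63.6%) beside 59.7%. The median pileup was 24 and 26, beside 83 and 118. By pileup, Six5 and Sox12 stood above the median of open genes in both replicates and Lhx2 in replicate 1. The 8 Th2 marker promoters also had folds below the median of all open genes, with medians of 6.35 and 7.22, Gata3 having 5.59 and 6.53.

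**Figure D2:**
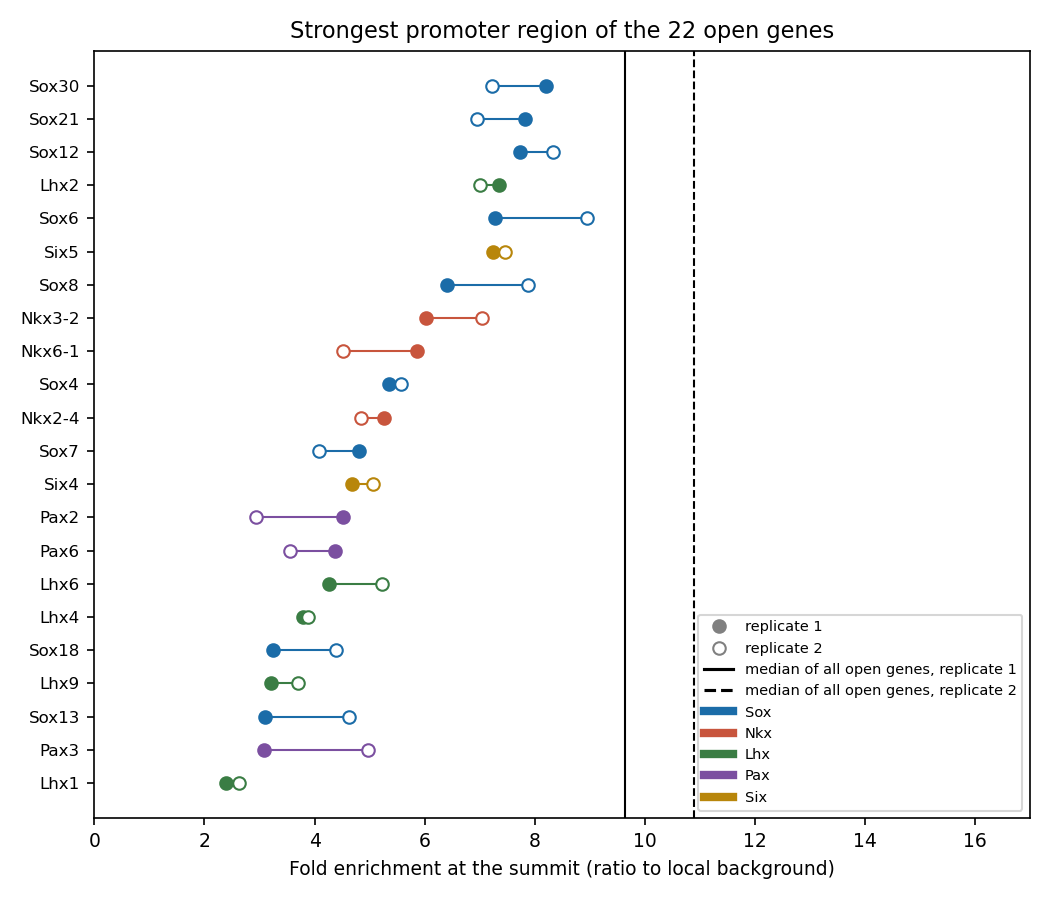
Fold at the summit of the strongest promoter region of each of the 22 open genes, in replicate 1 (filled) and replicate 2 (open), coloured by family. The x axis is the ratio to local background, and the vertical lines are the medians of all open protein-coding genes, 9.64 in replicate 1 (solid) and 10.9 in replicate 2 (dashed); every point lies left of its line, from Lhx1 at 2.39 and 2.63 to Sox30 at 8.21 and Sox6 at 8.95.

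**Figure D3:**
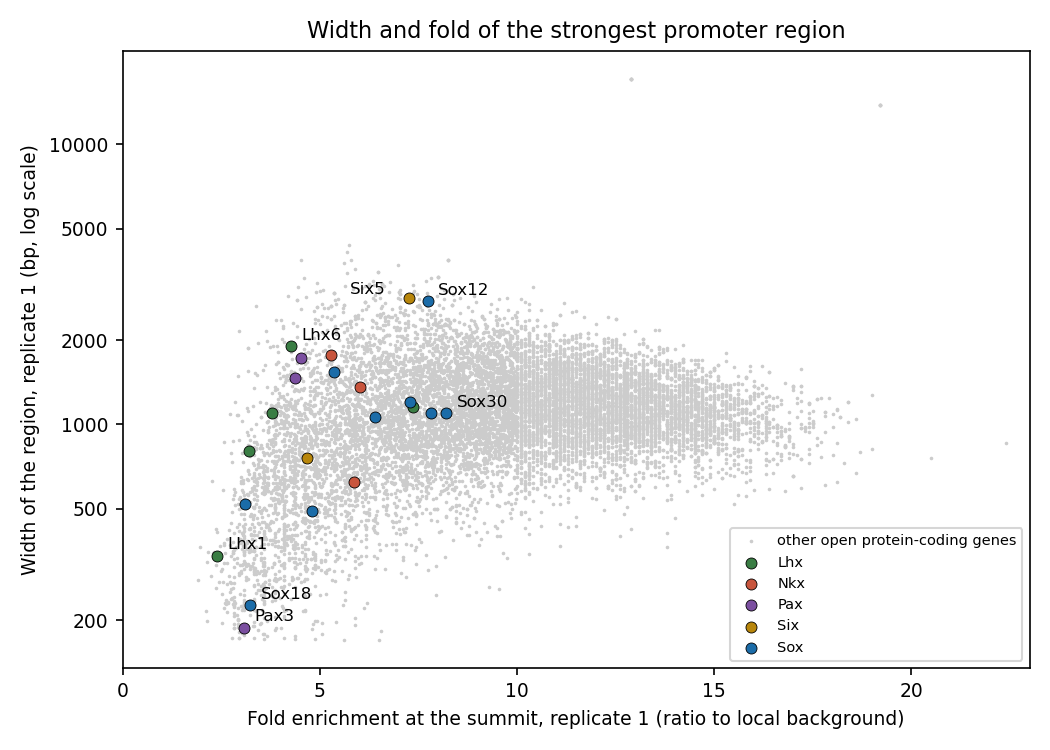
Width in bp (log scale) against fold of the strongest promoter region in replicate 1, for the 22 genes (coloured by family) and all other open protein-coding genes (grey). The 22 genes lie on the left, at folds of 2.39 to 8.21, with widths from 188 bp at Pax3 to 2832 bp at Six5.

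Fewer of these regions reached the start site itself. Of the 22 genes, 16 (72.7%) had a region that covered a start, beside 94.4% of open genes. The 6 others were Lhx1, Nkx2-4, Nkx6-1, Sox6, Sox13 and Sox18, where the region was upstream or began inside the gene. More than 1 separate promoter region was found at 4 of the 22 (18.2%), Lhx2, Lhx6, Lhx9 and Sox6, beside 7.55% of open genes. These 4 genes have 2, 4, 5 and 6 protein-coding start sites, and the 1 kb limit applied to each start. The part played by the number of starts was not tested.

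Most of the 53 promoters were rich in CpG, and fewer of them were open than among CpG-rich promoters of all genes. A promoter was called CpG-rich when the 1 kb around its most 5′ protein-coding start had a GC content of at least 50% and an observed over expected CpG of at least 0.6. This held for 38 of the 53 genes (71.7%), beside 46.0% of all protein-coding genes. Of those 38, 19 were open (50%), beside 91.3% of all CpG-rich promoters. Of the 15 others, 3 were open (20%: Lhx9, Pax6 and Sox6), beside 30.3%. The class was set at the most 5′ start, while the Pax6 region lay at an internal start. The open regions themselves had observed over expected CpG of 0.84 at Pax6, 0.83 and 0.60 at Sox6, and 0.76, 0.64 and 0.56 at Lhx9. Within 3 kb of the start, the median extent of CpG-rich sequence was 2734 bp over the 53 genes, beside 871 bp over all protein-coding genes. Open and closed genes of the list had similar extents, with a median of 2934 bp for the 22 open genes and 2666 bp for the 31 others. Sox2, Sox9, Sox11, Nkx2-1 and Nkx6-2 had 3652, 4218, 3336, 3391 and 4478 bp of CpG-rich sequence and no promoter region in either list.

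At like extents of CpG-rich sequence the share open still differed in number. With at least 2000 bp, 16 of 37 genes of the list were open (43.2%), beside 81.1% of 1815 other protein-coding genes. With 3000 bp or more the shares were 11 of 24 (45.8%) and 264 of 345 (76.5%), and with 1500 to 1999 bp they were close, 5 of 6 (83.3%) and 88.8%. Folds of other open genes were lower at the greatest extents, from a median of 10.5 and 11.9 at 1000 to 1499 bp to 6.16 and 6.63 at 3000 bp or more. In that last class the open genes of the list had medians of 5.35 and 5.22, a smaller gap than over all open genes. The 24 Polycomb subunit genes examined, of which 91.7% were CpG-rich, were all open, beside 91.3% of all CpG-rich promoters. Their median folds of 9.77 and 11.1 were near those of all open genes.

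**Figure D4:**
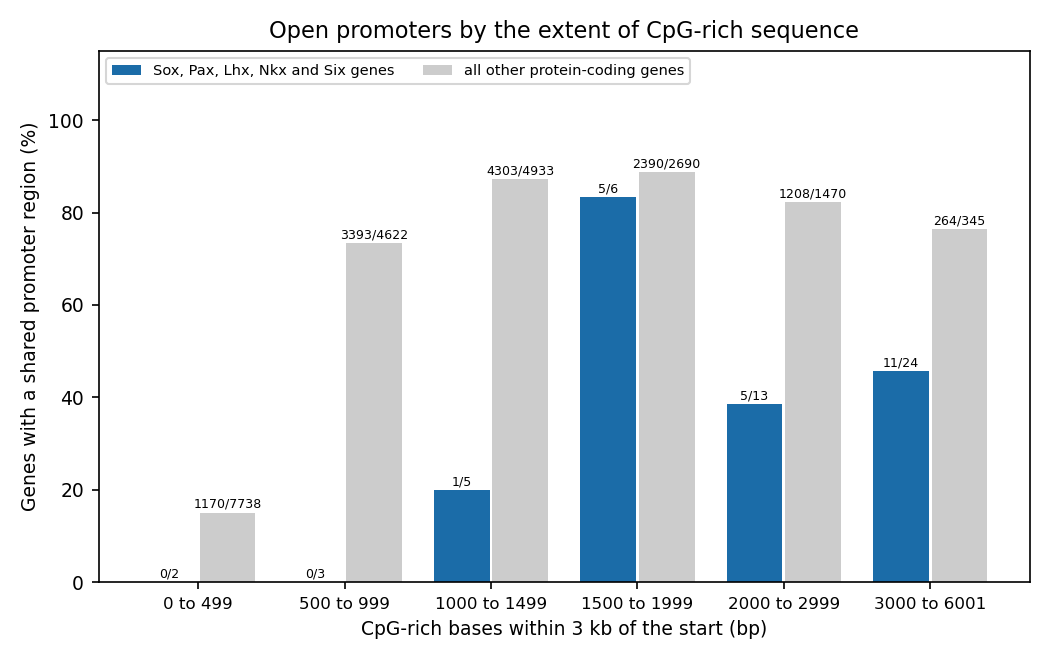
Share of genes with a shared promoter region (y axis, %) by the bases of CpG-rich sequence within 3 kb of the start (x axis, bp), for the 53 genes (blue) and all other protein-coding genes (grey). Numbers over the bars are open genes of all genes; the blue bars are lower in every class, with 5 of 6 against 88.8% at 1500 to 1999 bp the closest.

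At 10 further genes the lists disagreed: a promoter region stood in a single list, or in both without overlap. This was 18.9% of the 53 genes, beside 3.28% of all protein-coding genes. Replicate 1 alone had regions at Lhx5 (fold 2.85), Lhx8 (3.19), Nkx1-1 (3.27), Six3 (2.90) and Sox3 (3.08 and 2.82, a pair of regions). Replicate 2 alone had regions at Lhx3 (4.52), Nkx2-3 (2.77), Sox10 (2.84) and Sox15 (2.21). The Six2 regions had folds of 3.80 in replicate 1 and 3.16 in replicate 2. The pileups of all these regions were between 10 and 21 counts. The other 21 genes had no promoter region in either list.

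A window of the gene body with flanks of 20 kb held a shared region at 37 of the 53 genes (69.8%), beside 75.0% of all protein-coding genes, a share near the background. The median was 1 region per gene, beside 2 over all genes. These windows held 114 distinct regions, of which 31 (27.2%) lay nearest the start of a gene outside the list. The remaining 16 genes had no region there, and 13 had none within 100 kb of the gene body, so that 75.5% had one beside 83.7% of all genes. The 13 were Nkx2-1, Nkx2-9, Pax1, Pax9, Six2, Six3, Sox1, Sox2, Sox3, Sox9, Sox11, Sox14 and Sox17. The nearest region to a Sox11 start was 872 kb away, at the promoter of Cmpk2, and the nearest to Sox2 was 553 kb away. Nkx2-1, Nkx2-9 and Pax9 lie side by side on chromosome 12, and their nearest region was the same one, at the promoter of Mbip, 189, 267 and 346 kb away.

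By nearest start site, 119 shared regions belonged to 39 of the 53 genes, of which 27 were at promoters, 10 in exons, 29 in introns and 53 between genes. The 92 outside promoters were uneven: 14 were nearest Sox5, 12 nearest Sox4 and 10 nearest Sox6. These genes have much space: Sox5 is 954 kb long and Sox6 568 kb, and the nearest other start to that of Sox4 is 696 kb away. Whether the counts exceed those of other genes with as much space was not tested. Between genes their median folds, 4.87 and 5.20, were below those of all shared regions between genes, 5.66 and 6.41. In exons they were 3.96 and 3.93, beside 4.97 and 5.83, and in introns 4.94 and 6.51, beside 5.39 and 6.20. Sox5 had no region within 1 kb of a protein-coding start in either list, but 17 shared regions in its 954 kb gene record and flanks. Of these, 6 lay nearest the start of Bcat1. They include chr6:144781294-144783032, 536 and 1739 bp wide, with folds of 4.09 and 6.22. It covered the 5′ end of the Sox5 gene record, where no protein-coding transcript starts. Sox9, a cartilage and testis factor, had 4 regions nearest its start, all between 279 and 390 kb downstream, of which 1 had the highest fold in replicate 1, with 7.67 and 8.13, within 1 kb of the start of the lincRNA gene 2610035D17Rik. Another had the highest in replicate 2, with 7.20 and 10.6.

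By fold, the strongest regions of the list stood outside promoters. In replicate 1, Sox6 held the highest, a region of 1181 and 1024 bp in intron 13 (chr7:115494487-115495696) with folds of 12.5 and 12.8 and pileups of 91 and 110. By pileup, the promoter regions of Six5 and Sox12 stood above it. A second Sox6 region in intron 12 (chr7:115522670-115523389, 627 and 655 bp) had folds of 11 and 10.9 and pileups of 60 and 67. Both Sox6 regions exceeded every promoter region of the 53 genes in fold. In replicate 2 the highest fold among regions nearest these genes was at a region upstream of Sox10, chr15:79176649-79177748. It had folds of 8.26 and 14.3 and pileups of 55 and 144. At Sox4, a region 387 kb upstream, in an intron of a different protein-coding gene (chr13:29340157-29340918, 762 and 468 bp), had folds of 11.3 and 7.45 and pileups of 43 and 32. Another, 204 kb downstream (chr13:28749829-28750348, 447 and 520 bp), had 9.37 and 13.4 with pileups of 62 and 97, and one 72.6 kb downstream (chr13:28880791-28881237, 438 and 447 bp) had 8.90 and 8.86 with pileups of 42 and 53. Sox4 is the nearest gene by start site, but no contact with it was measured.

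At Sox5, intron 3 held a region of 460 and 227 bp (chr6:144043209-144043668) with folds of 10.7 in both and pileups of 42 and 52. Intron 6 held one of 447 and 473 bp (chr6:144020080-144020552) with folds of 8.90 and 10.4 and pileups of 53 and 74, and 196 kb downstream of a start one of 1185 and 1024 bp (chr6:143750679-143751947) had 9.21 and 9.68 with pileups of 49 and 58. Sox12 had a region 8.18 kb upstream (chr2:152405877-152406620, 744 and 612 bp) with folds of 9.97 and 13.5 and pileups of 55 and 89, higher in fold than its own promoter. The last of the 10 strongest by fold in replicate 1 lay in Lhx6 intron 5 (chr2:36090998-36091981, 984 and 943 bp), with folds of 8.76 and 7.81 and pileups of 65 and 82.

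**Figure D5:**
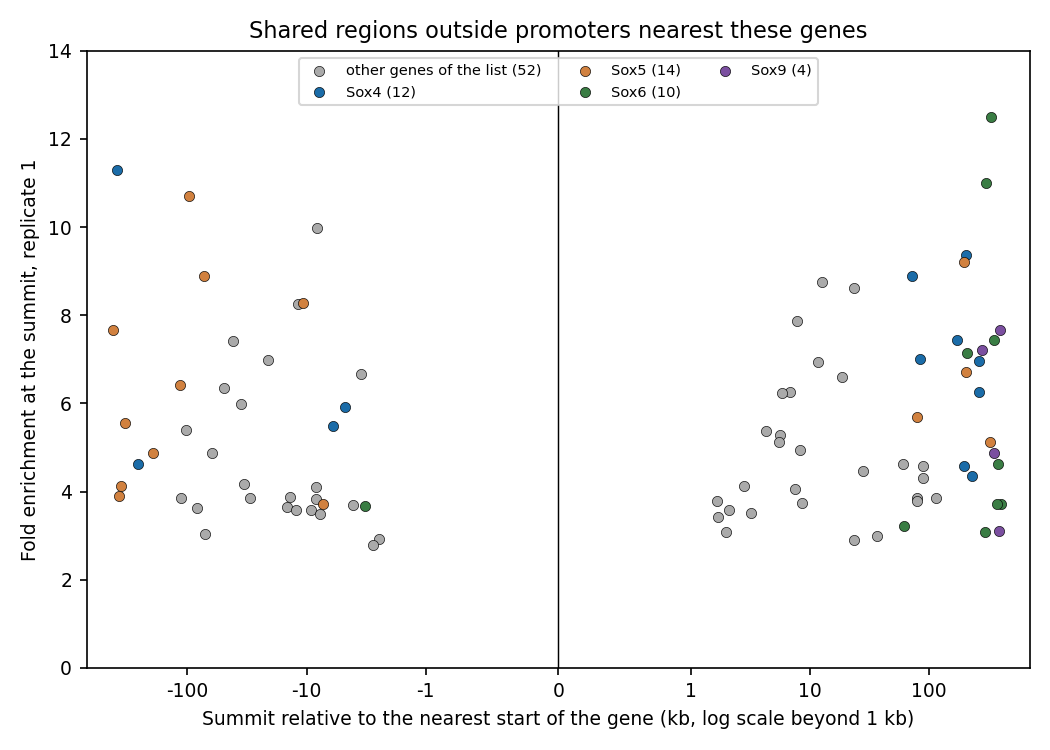
The 92 shared regions outside promoters whose nearest start is that of one of the 53 genes. The x axis is the distance of the summit from the nearest start of the gene in kb (log scale beyond 1 kb, negative upstream) and the y axis the fold in replicate 1; Sox4, Sox5, Sox6 and Sox9 regions are coloured, and the highest point is Sox6 at 12.5.

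Sequences at 4 of these summits are shown because they carry the AP-1 or RUNX word, which the promoter regions held in 0 and 1 of 27 cases. Each is 200 bp from mm10, 5′ to 3′ on the strand of the gene, here the minus strand. Capitals mark TGANTCA (AP-1), TGTGGT (RUNX), ACAATG (SOX) or their reverse complements. They are Sox6 intron 12 (chr7:115522881-115523080), where an AP-1 and a SOX word overlap, Sox5 intron 3 (chr6:144043443-144043642), with AP-1, Sox5 intron 6 (chr6:144020110-144020309), with RUNX and SOX overlapping, and the region downstream of Sox4 (chr13:28749895-28750094), with RUNX. By contrast, the summits in Sox6 intron 13, upstream of Sox12 and downstream of Sox5 held none of the searched words.
Sox6 intron 12: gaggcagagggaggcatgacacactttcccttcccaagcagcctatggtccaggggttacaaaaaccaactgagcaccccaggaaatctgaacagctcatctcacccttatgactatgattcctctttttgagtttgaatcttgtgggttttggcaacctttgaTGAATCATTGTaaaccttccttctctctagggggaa
Sox5 intron 3: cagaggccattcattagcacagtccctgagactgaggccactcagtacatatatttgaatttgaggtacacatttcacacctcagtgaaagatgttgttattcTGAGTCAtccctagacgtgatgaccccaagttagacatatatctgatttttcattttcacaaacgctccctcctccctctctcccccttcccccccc
Sox5 intron 6: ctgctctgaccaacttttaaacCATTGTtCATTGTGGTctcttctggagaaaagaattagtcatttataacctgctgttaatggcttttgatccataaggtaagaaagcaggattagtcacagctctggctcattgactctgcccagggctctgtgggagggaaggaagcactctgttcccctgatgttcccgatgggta
Sox4 downstream: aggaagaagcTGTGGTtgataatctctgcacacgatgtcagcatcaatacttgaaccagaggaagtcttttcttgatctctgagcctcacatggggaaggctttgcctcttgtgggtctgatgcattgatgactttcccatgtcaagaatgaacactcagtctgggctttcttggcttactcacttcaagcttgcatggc

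TGANTCA was found in 25 of the 92 regions outside promoters (27.2%) beside 27.9% of all 31520 such regions, a share near the background. TGTGGT was found in 14 of 92 (15.2%) beside 22.6%, and AGATAA, the GATA word, in 7 of 92 (7.61%) beside 12%. Of the SOX words, ACAATG was found in 16 of 92 (17.4%) beside 9.54%. ACAAAG, shared by SOX and TCF factors, was found in 15 of 92 (16.3%) beside 16.8%, a share near the background. GGGCGG was found in 13 of 92 (14.1%) beside 8.02%. TAATTA, bound by LIM homeodomain proteins, was found in 4 of 92 (4.35%) beside 2.48%, and in 0 of the 27 promoter regions beside 0.598%. CACTTAA, bound by NKX2 proteins, was found in 2 of 92 (2.17%) beside 2.16%.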

How the data were processed

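Both libraries are ATAC-seq of Th2 cells, and each was deposited as its own list of open regions on mm10. Per the file headers, a list came from 1 alignment of its own library. Which aligner and peak caller were used, and with what correction for the transposase, is not given in the sources used here. Region names hold the words ASTARR and insert, which no source explains, so the fragments may be those of a cloned library. The deposited fold was read as a ratio to local background. The authors' −log10 p and −log10 q (at least 1 and 1.01) were taken as given, and the deposited score and the authors' other columns were not used further.

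Pileups were solved from fold and p under a Poisson model with a pseudocount of 1. Whole numbers returned the p within 0.001 for 51555 of 51557 and 60885 of 60891 regions. Intervals are exact at 95% and, like pileups, cover counting error only. Sequencing depth is not stated, and the median pileup was 31 and 37.

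Python 3.11.15, numpy 2.4.6 and scipy 1.17.1 were used, and the scripts were tested on simulated data. Regions overlapping by 1 bp or more were joined, and start sites are those of protein-coding transcripts. Extent of CpG-rich sequence counts bases in 200 bp windows that pass both limits. No p-values were computed. Some genes that fit the naming rule are not reported here. Open genes are given with full values, as are the 10 regions outside promoters with the highest fold in replicate 1. The members and lists were chosen with earlier results of these data known. Tle5 was not matched. Alternatives covered overlap, q, replicates, distances and CpG limits.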

Additional observations from a re-analysis of the deposited data

How the results depend on the processing

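No paired analysis was possible because there is 1 group. The 22 open promoters (41.5% beside 58.3% of all genes) became 18 with 50% overlap of both regions (34% beside 56.3%). They became 20 by the centre of the region (37.7% beside 57.3%), 21 at the 5′ end alone (39.6% beside 56.4%) and 26 within 2.5 kb (49.1% beside 60.8%). Without replicate 1 they were 27 (50.9% beside 60.4%), and without replicate 2 they were 28 (52.8% beside 59.6%), both smaller gaps. With −log10 q of at least 10 they were 10 (18.9% beside 52%). With that q limit the median number of regions per window, 1, became 0, the open share of CpG-rich promoters 23.7% (all genes 84.7%), regions nearest a start 46, the median fold 7.26 and the median width 1281 bp. With 50% overlap the open share was 39.5% (all genes 89.2%). Leaving out a replicate gave a median number of 3 in either case, as over all genes (3), an open share of 52.6% to 63.2% (all genes 92.5% and 92.4%), 37 genes with a region in the window becoming 40 to 41 (75.5% beside 77.2% of all genes without replicate 1, and 77.4% beside 76.7% without replicate 2, where the list was no longer lower), and 174 to 182 regions nearest a start in place of 119. The median number was 1 in the gene body alone (all genes 1) and 5 with 100 kb on each side (all genes 8). The median fold was 4.60 within 2.5 kb, 4.80 at the 5′ end alone (width 1060 bp) and 4.52 over all promoter regions (width 1060 bp), against 9.27 to 9.64 over all genes. A stricter CpG limit gave 52.9% open (all genes 94%). 2 alternatives were added after seeing the data. Regions that cover a start left 16 open genes (30.2% beside 55.1% of all genes). CpG content at the 5′ end of the gene record, which can be that of a non-coding isoform, gave 46.2% open (all genes 90.7%). The cause of these shifts was not tested. The share of open CpG-rich promoters stayed below that of all genes in each of these alternatives.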

Other observations

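The highest folds inside the windows of these genes were at promoters of their neighbours. The Lhx9 window held the promoter region of 2310009B15Rik, with its summit 8.21 kb upstream of an Lhx9 start, with folds of 22.4 and 25.4, where Lhx9 itself had 3.21 and 3.70. The Sox8 window held that of Lmf1, with folds of 14.9 and 15.3, beside 6.40 and 7.88 at Sox8. The Lhx1 window held that of Aatf, an apoptosis antagonist, with folds of 13.6 and 16.3, beside 2.39 and 2.63 at Lhx1. Sox15, with no shared promoter region, had the promoter of Eif4a1, a translation initiation helicase, in its window with folds of 12.6 and 13.5, and that of Mpdu1 with 9.25 and 11.5. Nkx1-2, likewise closed, lay between the open promoters of Lhpp, with folds of 10.4 and 14.1, and of Oat, with 9.55 and 10.6.

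The nearest region to Sox10, 11.4 kb upstream and between genes, had folds of 8.26 and 14.3, and one downstream of Lhx3, 23.3 kb from its start, had 8.61 and 10.6. Both genes had no shared promoter region.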
